A study of Mus musculus with 6 samples.

Results

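The genes that write and erase methyl groups on histone lysines were examined in germinal vesicle (GV) oocytes with and without an intact *Bnc1* gene. Members were taken by name alone: every gene whose symbol begins with Kdm, Kmt, Ezh, Ehmt, Suv39h, Prdm or Nsd and a number, or with Setd and a letter or number, together with *Dot1l*, *Eed* and *Suz12*. The pattern took 61 of the 17577 genes listed. They comprised 23 methyltransferases with a histone substrate (writers), 16 demethylases (erasers), the 2 PRC2 subunits *Eed* and *Suz12*, 14 PRDM genes, 5 other SET-domain genes (*Kmt2e*, *Setd3*, *Setd4*, *Setd5* and *Setd6*) and *Kdm8*, a Jumonji-domain gene kept apart from the erasers.

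Histone lysine methylation is laid down mainly by SET-domain enzymes and removed by the flavin-dependent KDM1 enzymes or the Jumonji enzymes. Methylation of H3K4 and H3K36 accompanies transcription, whereas methylation of H3K9 and H3K27 marks heterochromatin and Polycomb-repressed genes. A growing oocyte builds its own chromatin state and stores RNA for the embryo, so that much of the RNA for these enzymes in a GV oocyte is maternal stock. PRDM proteins carry a domain related to SET, but many act as DNA-binding regulators with no known methyltransferase activity.

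The comparison was between 3 Bnc1tr/tr libraries and 3 wild type (WT) libraries of ovarian GV oocytes from 12-week-old C57BL/6 J mice. For GV oocyte collection the study describes injecting females with pregnant mare serum gonadotropin beforehand. Bnc1tr/tr mice are homozygous for a small frameshifting deletion that truncates BNC1, a zinc finger transcription factor of germ cells, and every cell of these mice carries it. WT mice were littermates without the allele. Each library was made from a single oocyte by a modified Smart-seq2 protocol, and the study calls the libraries of a group biological replicates. Neither it nor the labels say whether the oocytes came from separate animals, so that the p-values measure the spread between these libraries. Levels are FPKM, fragments scaled to transcript length and library total, which are relative to the rest of each library and say nothing of the RNA content of the oocyte.

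*Bnc1* itself, the targeted gene, was listed at 9.04, 6.51 and 5.83 FPKM in Bnc1tr/tr replicates 1 to 3 and at 13.17, 12.54 and 16.23 in WT. The groups did not overlap, and the RNA fell by 0.89 ± 0.20 (SE) on the log2(FPKM + 1) scale (limma, Benjamini-Hochberg adjusted p = 0.00895). The deletion leaves RNA that is still counted, so that this level is a check of the labels and not a measure of the protein. The Bnc1tr/tr libraries listed 10682 to 11035 genes at 1 FPKM or more and the WT libraries 9518 to 9748. All 10 oocyte markers were above 1 FPKM in all libraries, with summed levels of 15276 to 16665 FPKM in Bnc1tr/tr and 17481 to 19151 in WT, and *Zp2* and *Nlrp5* were called lower. Some markers of other ovarian cells also differed. The 10 immune markers summed to 58.4, 78.4 and 5.45 FPKM in Bnc1tr/tr replicates 1, 2 and 3 and to 2.83 to 4.23 in WT. *Lyz2*, *Tyrobp*, *Fcer1g* and *Cd74* were listed only in Bnc1tr/tr replicates 1 and 2 and at 0 in the other 4 libraries. The 9 theca and stroma markers listed summed to 11.8 to 15.8 FPKM in Bnc1tr/tr and 2.80 to 4.04 in WT. Only 2 were tested, *Cyp11a1* and *Dcn*, which gave most of these sums and were called higher. *Lum* and *Pdgfra*, under the filter, were also higher in each Bnc1tr/tr library. *Cyp17a1*, *Lhcgr*, *Col1a1* and *Acta2* were at 0.32 FPKM or under in all libraries, and *Lhcgr* was listed only in WT. The 13 granulosa and cumulus markers listed summed to 41.1 to 59.8 FPKM in Bnc1tr/tr and 21.9 to 42.1 in WT, with overlap. Most of both sums was *Cyp19a1*, which was not called. Of 4 tested only *Fshr* was called higher, and it averaged 1 FPKM or more only through the Bnc1tr/tr group. *Inha* went the other way, with means of 0.69 and 3.42 FPKM, and was not called. *Foxl2*, which defines granulosa cells, was at 0 in 5 libraries and at 0.03 FPKM in WT replicate 1. The part of these markers in the results was not tested, and results are therefore also given with Bnc1tr/tr replicates 1 and 2 left out.

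In WT oocytes, *Eed*, *Setd4* and *Ezh2* were the highest members. *Eed*, the PRC2 subunit that binds methylated H3K27, was the highest member, at 208 ± 21.7 FPKM (SD, n = 3), and ranked 648 of all genes listed. *Setd4*, a SET-domain gene, followed at 179 ± 42.8 FPKM and *Ezh2*, the main H3K27 methyltransferase of PRC2, at 146 ± 2.29. The spread of *Setd4* covered both neighbours in this order. *Suv39h1*, which trimethylates H3K9 in heterochromatin, came next at 63.5 ± 8.93 FPKM and was separate from the genes above it. The following 5 were close together, namely the H3K4 demethylase *Kdm1b*, required for maternal DNA methylation imprints, at 36.3 ± 7.10, the PRC2 subunit *Suz12* at 35.0 ± 7.80, *Suv39h2* at 33.8 ± 3.78, the H3K36 demethylase *Kdm2b* at 33.0 ± 4.80 and the H3K27 demethylase *Kdm6b* at 30.1 ± 2.37 FPKM. Their libraries overlapped. At the other end, 21 of the 61 members had a WT mean under 1 FPKM, including 7 of 16 erasers, 5 of 23 writers and 8 of 14 PRDM genes. The median WT level was 4.72 FPKM for writers, 1.37 for erasers and 0.62 for PRDM genes.

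**Figure D1:**
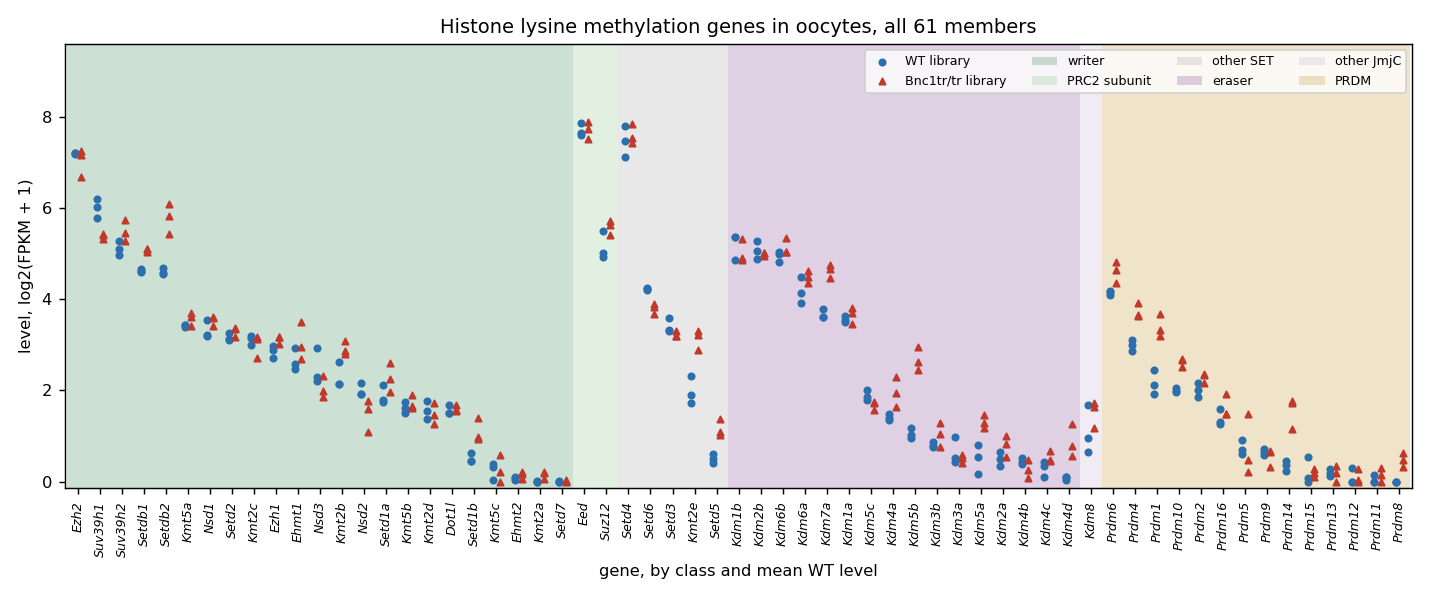
Level of the members in each library, as log2(FPKM + 1), with circles for WT and triangles for Bnc1tr/tr libraries; members stand along the x axis by role, shown as shading, and by mean WT level. The highest are *Eed*, *Setd4* and *Ezh2*, whose Bnc1tr/tr and WT points overlap, and many erasers and PRDM genes sit at the low end.

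Genes averaging 1 FPKM or more across the 6 libraries were tested, which took in 41 of the 61 members. A gene was called where the adjusted p was under 0.05 and the absolute log2 fold change over 0.5. With these limits 9 members were higher and 1 was lower in Bnc1tr/tr oocytes, 24.4% of those tested. Over all 10560 genes tested 31.8% were called, 24.1% higher and 7.68% lower, so that the members were not called more often than genes in general. The median log2 fold change was 0.25 for the members and 0.15 for all tested genes. The 2 groups did not overlap for 15 members that were higher and 5 that were lower in Bnc1tr/tr, 48.8% of those tested against 46.8% of all genes. The filter can pass a gene through its high group, so these counts describe the members that were tested and not the family.

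Calls among writers and among erasers were few. Of 18 writers tested, 2 were higher (*Setdb2* and *Kmt2b*), 1 was lower (*Suv39h1*) and 15 were not called. Of 9 erasers tested, 2 were higher (*Kdm5b* and *Kdm7a*), none was lower and 7 were not called. The median log2 fold change was 0.14 for writers and 0.18 for erasers, both near the 0.15 of all genes, and 16.7% of tested writers and 22.2% of tested erasers were called. In the PRDM group 4 of 7 tested genes were higher (*Prdm1*, *Prdm14*, *Prdm4* and *Prdm10*), with a median of 0.62. The remaining called member was *Kmt2e*, 1 of 4 other SET genes tested, and neither PRC2 subunit nor *Kdm8* was called.

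**Figure D2:**
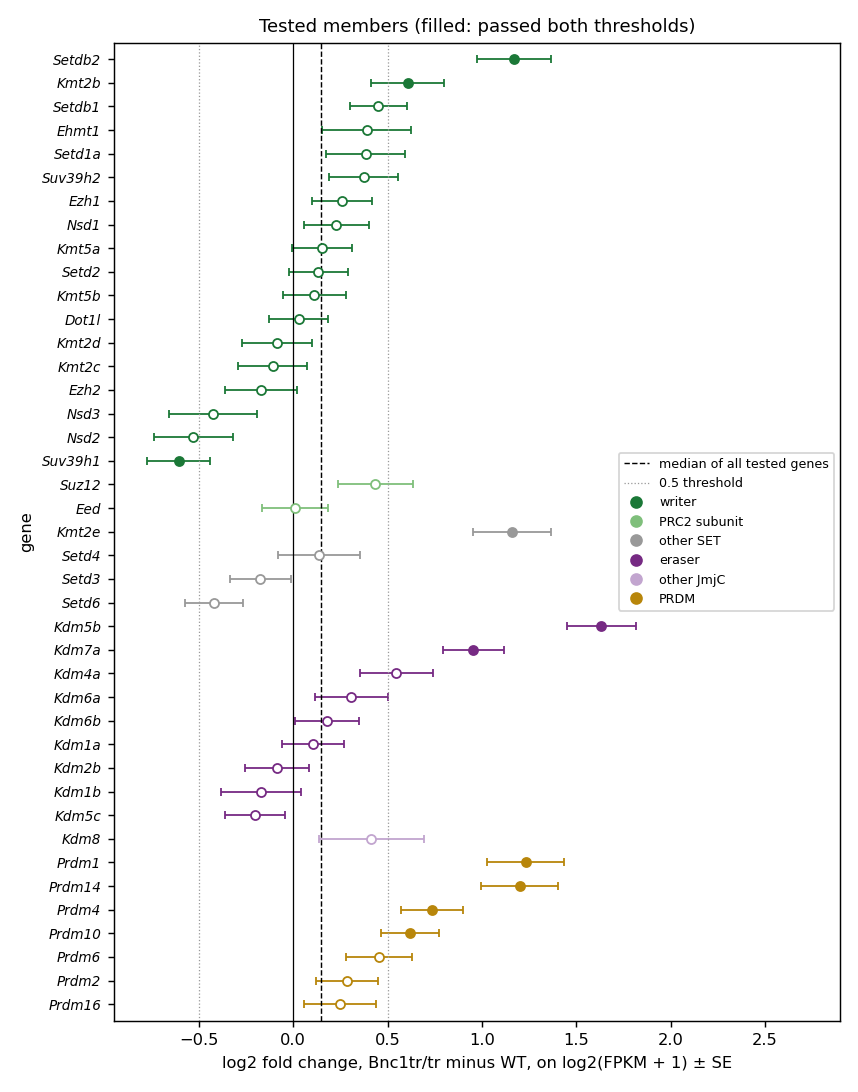
Log2 fold change of each of the 41 tested members on the log2(FPKM + 1) scale (Bnc1tr/tr minus WT, bars are SE), coloured by role, filled where both call limits were passed. The dashed line is the median of all tested genes, 0.15, and the dotted lines are the 0.5 limits; *Kdm5b* lies farthest right at 1.63 and *Suv39h1* farthest left at -0.61.

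*Setdb2* and *Suv39h1*, both H3K9 methyltransferases, moved in opposite directions. *Setdb2*, a relative of SETDB1 that acts on H3K9, stood at 42.10, 55.66 and 66.61 FPKM in Bnc1tr/tr replicates 1 to 3 and at 22.78, 22.58 and 24.82 in WT. The WT libraries were close together and all Bnc1tr/tr libraries lay above them. The mean rose from 23.4 ± 1.24 to 54.8 ± 12.3 FPKM (SD, n = 3), a log2 fold change of 1.17 ± 0.20 (SE, limma, adjusted p = 0.00214). *Suv39h1* stood at 41.75, 42.30 and 39.18 FPKM in Bnc1tr/tr and at 64.03, 72.13 and 54.30 in WT. Here the Bnc1tr/tr libraries were close together and all lay under the lowest WT library. Its log2 fold change was -0.61 ± 0.17 (adjusted p = 0.0237), and 14.6% of its exonic bases overlap a predicted gene on the other strand, *Gm14820*, whose reads this library type cannot separate. The call for *Suv39h1* was lost without Bnc1tr/tr replicate 1, 2 or 3 (-0.62, -0.63 and -0.57, adjusted p = 0.0596, 0.0566 and 0.0754) or without WT replicate 1 or 2 (-0.60 and -0.51, adjusted p = 0.0591 and 0.112), each with the direction kept.

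The other H3K9 writers moved less. *Setdb1*, the partner of TRIM28 in silencing retroelements, was at 31.83, 33.17 and 33.27 FPKM in Bnc1tr/tr and 23.57, 23.10 and 24.40 in WT. The groups were tight and separate, but its log2 fold change of 0.45 (adjusted p = 0.0466) was under the limit of 0.5 and it was not called. *Suv39h2*, the paralog of *Suv39h1*, was at 37.88, 42.65 and 52.29 FPKM in Bnc1tr/tr and 33.16, 30.36 and 37.85 in WT. The groups nearly touched, and the difference of 0.37 did not pass (adjusted p = 0.153). Of the exonic bases of *Suv39h2*, 9.98% overlap *Dclre1c* or *Gm13184* on the other strand. *Ehmt1*, the H3K9 mono- and dimethyltransferase, overlapped between groups at 5.49 to 10.27 and 4.51 to 6.64 FPKM, and its partner *Ehmt2* was at 0.15 FPKM or under in all libraries.

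*Kmt2b*, an H3K4 methyltransferase needed in oocytes for bulk H3K4 methylation, was at 5.92, 7.5 and 6.28 FPKM in Bnc1tr/tr and 3.43, 3.42 and 5.19 in WT. All Bnc1tr/tr libraries were above all WT libraries, although WT replicate 3 came near. The log2 fold change of 0.61 ± 0.19 was called (adjusted p = 0.0401) but rested on every library except WT replicate 3. The adjusted p was 0.067, 0.125 and 0.0846 without Bnc1tr/tr replicate 1, 2 and 3 and 0.11 and 0.149 without WT replicate 1 and 2, with log2 fold changes of 0.52 to 0.67. The other H3K4 writers tested, *Kmt2c*, *Kmt2d* and *Setd1a*, were not called, and 51.8% of the 31-base words of *Setd1a* transcripts occur in other genes, so that its level is uncertain. *Kmt2a*, *Setd1b* and *Setd7* were under the filter. The H3K36 writers *Nsd1*, *Nsd2*, *Nsd3* and *Setd2*, the H3K79 writer *Dot1l* and the H4K20 writers *Kmt5a* and *Kmt5b* were not called. Of these only *Nsd2* did not overlap between groups, at 2.0, 1.11 and 2.39 FPKM in Bnc1tr/tr and 3.49, 2.78 and 2.80 in WT (log2 fold change -0.53, adjusted p = 0.0854).

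*Kdm5b*, which removes methyl groups from di- and trimethylated H3K4, had the largest difference of any tested member on the log2(FPKM + 1) scale; by the ratio of means *Prdm14* was ahead at 7.22-fold. It was at 6.74, 4.47 and 5.20 FPKM in Bnc1tr/tr and at 1.03, 0.93 and 1.25 in WT. Every Bnc1tr/tr library was several times above every WT library, and the means differed 5.11-fold. The log2 fold change was 1.63 ± 0.18 (SE, limma, adjusted p = 0.000224) and was 1.59 with replicates 1 and 2 left out (adjusted p = 0.0185, with the lone Bnc1tr/tr library taken to vary as the WT libraries do). Its X-linked paralog *Kdm5c* was slightly lower in all Bnc1tr/tr libraries, at 2.36, 1.99 and 2.28 against 2.63, 2.44 and 3.04 FPKM, and was not called (-0.20, adjusted p = 0.362). *Kdm7a*, a Jumonji enzyme acting on dimethylated H3K9 and H3K27, was at 25.87, 21.07 and 24.30 FPKM in Bnc1tr/tr and at 12.75, 11.19 and 11.29 in WT. The groups were far apart relative to their spread, with means of 23.7 ± 2.45 and 11.7 ± 0.873 FPKM and a log2 fold change of 0.95 ± 0.16 (adjusted p = 0.0023).

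The 4 erasers highest in WT oocytes, *Kdm1b*, *Kdm2b*, *Kdm6b* and *Kdm6a*, were not called, nor were *Kdm1a* and *Kdm4a*. *Kdm1b* was at 28.25, 28.91 and 38.93 FPKM in Bnc1tr/tr and 40.32, 40.41 and 28.06 in WT, with 1 library of each group on the other group's side (-0.17, adjusted p = 0.58). *Kdm1a*, the LSD1 demethylase of mono- and dimethylated H3K4, was at 12.05, 10.05 and 12.95 against 10.30, 10.59 and 11.35 FPKM (0.10, adjusted p = 0.669). The X-linked H3K27 demethylase *Kdm6a* was at 19.45, 21.42 and 23.58 against 16.51, 14.11 and 21.44 FPKM (0.31, adjusted p = 0.254). Its autosomal paralog *Kdm6b* overlapped as well, at 39.67, 31.74 and 31.72 against 30.99, 27.41 and 31.90 FPKM (0.18, adjusted p = 0.453). *Kdm2b* was at 31.44, 29.87 and 31.16 against 28.47, 32.48 and 38.02 FPKM (-0.09, adjusted p = 0.737). *Kdm4a*, which acts on trimethylated H3K9 and H3K36, did not overlap between groups, at 2.13, 2.84 and 3.89 against 1.55, 1.80 and 1.64 FPKM, and missed the limit (0.55, adjusted p = 0.0616). It passed without Bnc1tr/tr replicate 1 (0.70, adjusted p = 0.0353).

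Among the SET genes without a firm histone role, *Kmt2e*, whose SET domain lacks key catalytic residues, was at 8.94, 6.42 and 8.28 FPKM in Bnc1tr/tr and 3.99, 2.71 and 2.31 in WT. The lowest Bnc1tr/tr library was well above the highest WT library, and the log2 fold change was 1.16 ± 0.21 (limma, adjusted p = 0.00299), with 9.31% of its exonic bases shared with *Srpk2*. *Setd4* overlapped, at 170.72, 227.28 and 185.04 FPKM in Bnc1tr/tr and 137.43, 176.28 and 222.98 in WT (0.14, adjusted p = 0.674). *Setd6*, a methyltransferase with non-histone substrates, was tight in WT at 17.45, 17.91 and 17.64 FPKM and lower in each Bnc1tr/tr library at 11.86, 13.30 and 13.79, and did not pass (-0.42, adjusted p = 0.0674).

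With the values as deposited the PRDM genes were the group with the most calls, 57.1% of the 7 tested against 31.8% of all genes. After upper-quartile scaling or quantile normalization only *Prdm1* and *Prdm14* of them stayed called. *Prdm1*, a transcriptional repressor that acts in germ cell specification, was at 11.74, 8.18 and 9.10 FPKM in Bnc1tr/tr and at 3.37, 4.49 and 2.80 in WT. *Prdm14*, another regulator of germ cell specification, was at 2.41, 1.22 and 2.29 against 0.28, 0.36 and 0.18 FPKM. In both genes the groups were well separated, with log2 fold changes of 1.23 ± 0.20 (adjusted p = 0.00197) for *Prdm1* and 1.2 ± 0.20 (adjusted p = 0.00221) for *Prdm14*, the latter a gene that passed the filter only through the Bnc1tr/tr group and fell under it without Bnc1tr/tr replicate 1 or 3. *Prdm4*, a zinc finger regulator, was at 11.55, 11.33 and 14.04 FPKM in Bnc1tr/tr and 7.65, 6.94 and 6.34 in WT (0.74, adjusted p = 0.00973). *Prdm10*, another zinc finger member, was at 5.43, 5.38 and 4.75 against 2.91, 2.98 and 3.18 FPKM (0.62, adjusted p = 0.0146). Its call was lost without WT replicate 2 (0.61, adjusted p = 0.0624). *Prdm6*, the highest PRDM gene in WT, was at 27.17, 23.87 and 19.41 against 16.81, 17.12 and 16.19 FPKM and was not called, nor were *Prdm2* and *Prdm16*. All 7 tested PRDM genes had positive differences with the values as deposited (5 of 7 after quantile normalization), and the groups did not overlap for 6 of them, while over all genes 60.4% were positive and 32.7% were higher without overlap. *Prdm14*, which its high group brought past the filter, is among these counts and among the calls. *Prdm9*, which marks recombination sites with H3K4 methylation in meiotic prophase, was under the filter at 0.25 to 0.59 FPKM in Bnc1tr/tr and 0.50 to 0.65 in WT.

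**Figure D3:**
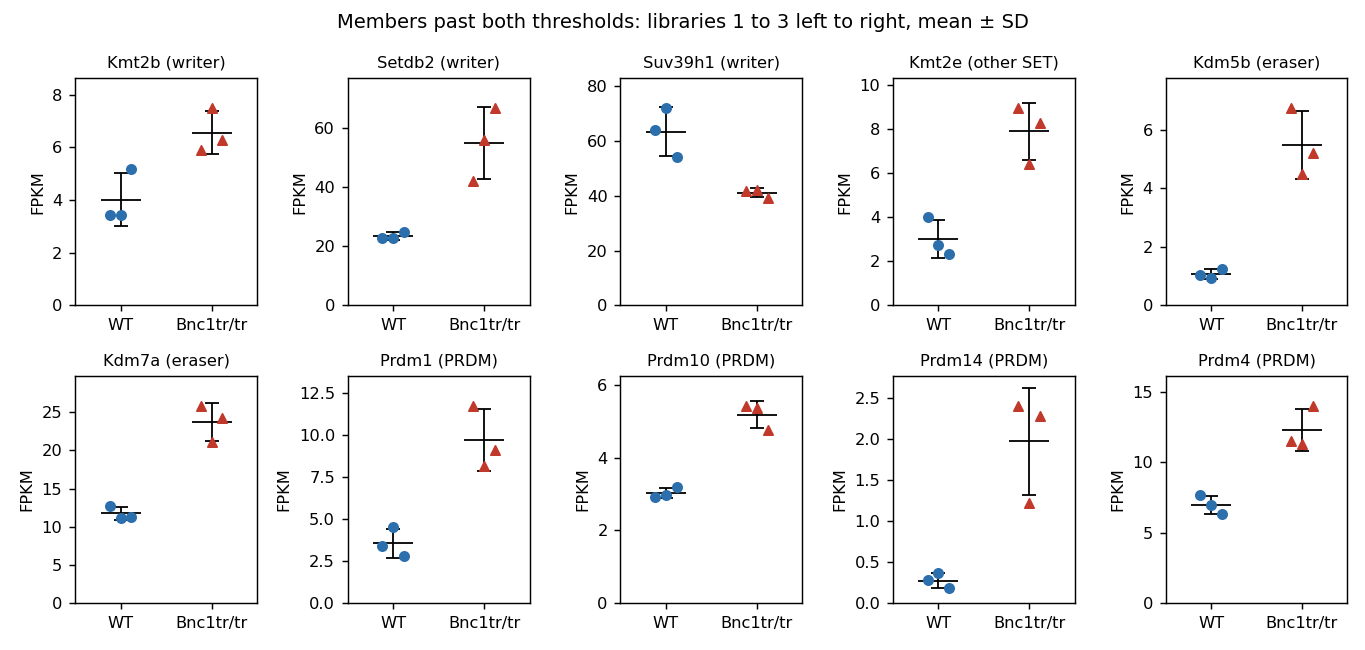
FPKM of the 10 called members in each library, 1 panel per gene with its own axis from 0, with circles for WT, triangles for Bnc1tr/tr and lines for the mean ± SD. In each panel the Bnc1tr/tr points and the WT points do not overlap, and *Suv39h1* is the only panel with the Bnc1tr/tr points below.

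Bnc1tr/tr replicate 3 lacked most of the immune transcripts but not all markers of other cells. The immune marker *Laptm5*, called higher (1.46, limma, adjusted p = 0.00415), was at 4.11 FPKM in it against 1.17 to 1.44 in WT, *Dcn* at 4.93 against 1.36 to 2.02, *Cyp11a1* at 5.29 against 0.60 to 2.17 and *Fshr* at 5.37 against 0 to 0.74. Other markers of these lists were not raised in it. *Cd68* was at 0.96 FPKM against 1.39 to 2.94 in WT. *Inha* at 0.09 and *Gja1* at 0.20 lay within the WT ranges of 0.04 to 6.78 and 0.06 to 2.77. With replicates 1 and 2 left out, 8 of the 9 higher members were still tested, and *Kdm5b* and *Setdb2* remained called. *Kdm7a*, *Kmt2e* and *Prdm1* then had log2 fold changes of 0.99, 1.24 and 1.17 with adjusted p of 0.0657, 0.0727 and 0.0734. *Suv39h1* was at -0.67 (adjusted p = 0.195).

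The scaling of the libraries bears on these directions. Among all called genes 75.8% were higher in Bnc1tr/tr with the values as deposited, 58.9% after median-ratio scaling, 50.1% after upper-quartile scaling and 46.8% after quantile normalization. The median log2 fold change of all genes was 0.15, -0.02, -0.10 and -0.10 in the same order, and that of the members 0.25, 0.10, 0.02 and -0.03. The members' median was above that of all genes under each of these. The median of the writers was 0.14, -0.02, -0.09 and -0.15 and that of the erasers 0.18, 0.00, -0.09 and 0.04, so that the sign of either median depended on the scaling. All 7 tested PRDM genes had positive differences under the first 3, and after quantile normalization *Prdm2* and *Prdm16* were negative. *Kdm5b*, *Kdm7a*, *Setdb2*, *Kmt2e*, *Prdm1* and *Prdm14* were called higher and *Suv39h1* lower under all 4 scalings. *Kmt2b* and *Prdm10* were called only with the deposited values, *Prdm4* also after median-ratio scaling.

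Promoters are given for 5 of the called members and for *Suv39h2*, which was not called, to set it beside its paralog *Suv39h1*. Each window holds the 250 bases before the RefSeq transcript start on GRCm38.p6, 5′ to 3′ on the strand of the gene, with CCAAT boxes (CCAAT or its complement ATTGG) and GC boxes (GGGCGG or CCGCCC) in capitals. Of the 2 windows of *Suv39h1* the one at its principal GENCODE start is shown. The window of *Prdm1* lies within the RefSeq span of the gene (chr10:44437174-44528558) and not at its outer end.
*Setdb2* (chr14:59440881-59441130, minus strand): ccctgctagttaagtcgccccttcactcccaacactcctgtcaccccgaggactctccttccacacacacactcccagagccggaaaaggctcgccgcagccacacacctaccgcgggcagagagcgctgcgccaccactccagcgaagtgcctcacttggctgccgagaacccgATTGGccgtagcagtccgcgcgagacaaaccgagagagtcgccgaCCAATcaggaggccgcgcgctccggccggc
*Suv39h1* (chrX:8074761-8075010, minus strand): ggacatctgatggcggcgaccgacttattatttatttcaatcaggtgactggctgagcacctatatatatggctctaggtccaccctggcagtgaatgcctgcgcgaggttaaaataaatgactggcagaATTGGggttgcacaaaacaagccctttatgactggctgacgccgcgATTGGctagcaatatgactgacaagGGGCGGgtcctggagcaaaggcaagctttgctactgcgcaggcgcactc
*Suv39h2* (chr2:3474987-3475236, minus strand): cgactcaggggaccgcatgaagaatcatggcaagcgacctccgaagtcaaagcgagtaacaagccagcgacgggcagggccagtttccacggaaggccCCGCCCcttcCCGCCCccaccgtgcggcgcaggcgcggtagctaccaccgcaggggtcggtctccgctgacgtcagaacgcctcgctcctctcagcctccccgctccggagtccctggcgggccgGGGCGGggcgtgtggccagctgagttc
*Kdm5b* (chr1:134559928-134560177, plus strand): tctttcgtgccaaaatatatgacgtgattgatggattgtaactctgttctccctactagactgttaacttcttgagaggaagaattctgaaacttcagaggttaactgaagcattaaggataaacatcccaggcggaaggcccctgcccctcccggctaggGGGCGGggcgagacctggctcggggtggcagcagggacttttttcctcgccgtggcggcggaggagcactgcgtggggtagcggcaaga
*Kdm7a* (chr6:39206774-39207023, minus strand): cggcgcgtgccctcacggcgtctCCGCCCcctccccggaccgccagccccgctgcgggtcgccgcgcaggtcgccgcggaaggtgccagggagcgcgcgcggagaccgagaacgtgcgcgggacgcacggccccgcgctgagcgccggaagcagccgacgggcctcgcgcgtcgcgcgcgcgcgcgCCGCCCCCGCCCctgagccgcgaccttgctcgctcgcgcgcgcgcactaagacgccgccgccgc
*Prdm1* (chr10:44458749-44458998, minus strand): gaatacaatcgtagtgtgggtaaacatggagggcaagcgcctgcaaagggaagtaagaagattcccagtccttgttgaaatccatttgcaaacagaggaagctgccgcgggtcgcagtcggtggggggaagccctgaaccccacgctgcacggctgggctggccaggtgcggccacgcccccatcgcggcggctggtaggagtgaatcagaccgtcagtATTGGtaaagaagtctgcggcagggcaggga

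The 6 windows differed in both motifs. Those of *Setdb2* and *Suv39h1*, which moved in opposite directions, each held 2 CCAAT boxes, and *Prdm1* held 1, whereas *Suv39h2*, *Kdm5b* and *Kdm7a* held none. GC boxes numbered 3 in *Kdm7a* and *Suv39h2*, 1 in *Kdm5b* and *Suv39h1* and 0 in *Setdb2* and *Prdm1*. The observed over expected CpG ratio was 1.35 in *Kdm7a*, 0.943 in *Setdb2*, 0.895 in *Suv39h2*, 0.718 in *Kdm5b*, 0.710 in *Prdm1* and 0.668 in *Suv39h1*. RefSeq windows were matched for 46 of the 61 members, 62 windows in all. Their median CpG ratio was 0.832, against 0.374 over all 32851 windows. All windows belong to 27025 genes, more than the 17577 listed, and were not limited to genes expressed in oocytes. The contrasts with all windows are therefore not particular to this family. A GC box, which itself contains a CpG, was found in 61.3% of member windows and 32.7% of all windows, and a CCAAT box in 45.2% and 33.9%. Writers (23 windows) and erasers (17 windows) had similar median CpG ratios, 0.831 and 0.842, with a GC box in 73.9% and 52.9%. The E-box CACGTG was found in 6.45% of member windows and 6.02% of all, and TAATTG or its complement, which can overlap a CCAAT box, in 1.61% and 7.17%. These are counts of letters on both strands and not of bound factors.

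No gene of the PRC2 core was called. As deposited, the summed FPKM of *Eed*, *Suz12*, *Ezh1* and *Ezh2* was 396 ± 25.5 in Bnc1tr/tr and 396 ± 30.6 in WT (SD, n = 3). The means were 361 and 438 after upper-quartile scaling, 372 and 424 after median-ratio scaling and 397 and 393 after quantile normalization. The groups overlapped under each of these. *Eed* was at 181.77, 236.13 and 212.04 FPKM in Bnc1tr/tr and 193.00, 198.14 and 232.90 in WT (0.01, adjusted p = 0.971). *Ezh2* was at 141.57, 101.09 and 152.35 against 143.65, 147.16 and 147.94 FPKM, with replicate 2 alone low (-0.17, adjusted p = 0.533). *Ezh1*, the less active paralog, was higher in each Bnc1tr/tr library at 7.97, 8.0 and 7.11 against 6.44, 6.85 and 5.56 FPKM but did not pass (0.26, adjusted p = 0.253). *Suz12*, the scaffold of the complex, was at 41.35, 48.17 and 51.85 against 29.64, 31.39 and 43.94 FPKM (0.43, adjusted p = 0.128). It passed without WT replicate 3 (0.61, adjusted p = 0.0285).

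Summed levels compare the balance of writers and erasers within a library, per kilobase of transcript. The writers summed to 377.96, 345.33 and 418.45 FPKM in Bnc1tr/tr and 357.23, 360.74 and 355.42 in WT, with the groups overlapping and *Ezh2* alone giving 40.9% of the WT sum. The erasers summed to 174.68, 157.00 and 178.37 FPKM in Bnc1tr/tr and 147.21, 144.30 and 150.88 in WT, without overlap, but the eraser sums overlapped after any of the 3 other scalings (means of 159 and 158 FPKM after median-ratio scaling and 155 and 163 after upper-quartile scaling). The ratio of writers to erasers was 2.16, 2.2 and 2.35 in Bnc1tr/tr and 2.43, 2.50 and 2.36 in WT. These ratios were separate by a margin smaller than the spread within either group, and they overlapped after quantile normalization (means 2.31 and 2.35) or with *Ezh2* and *Kdm1b* left out (1.81 and 1.91).

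Split by the mark assigned to each enzyme, the ratios differed most for H3K9. The H3K9 writers summed to 163.87, 179.39 and 198.20 FPKM in Bnc1tr/tr and 150.25, 153.15 and 145.93 in WT, and the H3K9 erasers to 31.95, 26.66 and 30.50 against 15.93, 14.78 and 15.44. With the values as deposited both sums were higher in Bnc1tr/tr. The eraser sum stayed without overlap under all 4 scalings, while the writer sum overlapped under the other 3. The ratio was 6.12 ± 0.865 against 9.75 ± 0.531 in WT, and 6.47 ± 0.852 against 8.72 ± 0.562 after quantile normalization, without overlap in either. *Kdm7a* gave 76.3% of the WT eraser sum for H3K9, and without it the ratio was 30.3 ± 2.93 against 41.7 ± 6.10. The erasers left in that ratio are *Kdm4a* and 5 genes under the filter, so that its denominator is low and uncertain. The H3K27 eraser sums were 84.99, 74.23 and 79.60 FPKM in Bnc1tr/tr and 60.25, 52.71 and 64.63 in WT, and overlapped under the 3 other scalings. The H3K27 writer sums overlapped as deposited (means 139 and 153 FPKM). After upper-quartile scaling they were lower in Bnc1tr/tr without overlap (means 127 and 168). For H3K27 the ratio was 1.74 ± 0.267 against 2.60 ± 0.288, and the groups overlapped after quantile normalization (1.85 and 2.41) and without *Kdm7a* (2.49 and 3.25). The ratio was 0.395 ± 0.0597 and 0.332 ± 0.0433 for H3K4 and 0.697 ± 0.0302 and 0.702 ± 0.109 for H3K36, with overlap in both. The H3K4 writer sums were 23.14, 18.78 and 20.20 FPKM in Bnc1tr/tr and 17.84, 16.11 and 16.57 in WT as deposited, overlapped after median-ratio or upper-quartile scaling, and were lower in Bnc1tr/tr without overlap after quantile normalization (means 17.7 and 20.03). *Kdm7a*, *Kdm4a*, *Kdm4b* and *Kdm4c* were counted under both marks assigned to them, and every other enzyme under a single mark. *Kdm1a* and *Kdm1b* were thus counted for H3K4 alone and *Kdm2b* for H3K36 alone. Further substrates were left out, and the ratios depend on this assignment. Sums of FPKM follow their most abundant genes and do not measure enzyme activity, and no test was run on them.

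**Figure D4:**
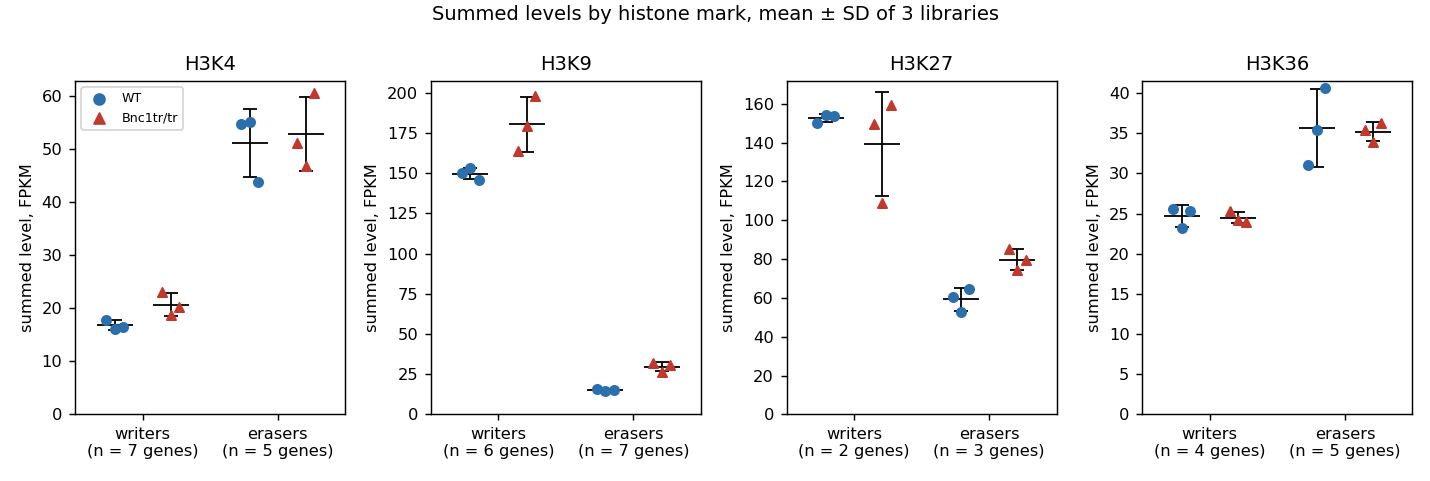
Summed FPKM of the writers and of the erasers of 4 marks, 1 panel per mark with its own axis from 0, with circles for WT libraries, triangles for Bnc1tr/tr libraries and lines for the mean ± SD (n = 3). With the values as deposited the H3K9 sums of both kinds, the H3K4 writer sums and the H3K27 eraser sums lie higher in Bnc1tr/tr, and the other sums overlap. Only the H3K9 eraser sums stay higher without overlap under the 3 other scalings. The H3K4 writer sums are lower after quantile normalization and the H3K27 writer sums after upper-quartile scaling.

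Ratios between paralogs in the same library do not depend on its scaling by a single factor. The 7 pairs were chosen after values were seen, and 3 libraries against 3 cannot give a two-sided exact permutation p under 0.10. *Suv39h1* to *Suv39h2* was 1.10, 0.992 and 0.749 in Bnc1tr/tr and 1.93, 2.38 and 1.43 in WT. In WT the *Suv39h1* RNA thus led in each library, while in Bnc1tr/tr the pair was near parity, a log2 difference of -1.0 (exact permutation p = 0.1, 0.175 adjusted over the 7 pairs). *Setdb1* to *Setdb2* was 0.756, 0.596 and 0.4995 in Bnc1tr/tr and 1.03, 1.02 and 0.983 in WT, a log2 difference of -0.74 with the same p. The sequence that *Suv39h1*, *Suv39h2* and *Setdb1* share with other genes can also enter these ratios. *Kdm5b* to *Kdm5c* was 2.86, 2.25 and 2.28 in Bnc1tr/tr and 0.392, 0.381 and 0.411 in WT, so that *Kdm5b* led in each Bnc1tr/tr library and *Kdm5c* in each WT library (log2 difference 2.63, same p). *Ezh1* to *Ezh2* was 0.0563, 0.0791 and 0.0467 against 0.0448, 0.0465 and 0.0376, narrowly without overlap (0.47, same p). The other three pairs overlapped. Their log2 differences were 0.29 for *Kdm1a* to *Kdm1b* (exact permutation p = 0.3), 0.14 for *Kdm6a* to *Kdm6b* (p = 0.6) and 0.86 for *Kmt2b* to *Kmt2c* (p = 0.2).

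**Figure D5:**
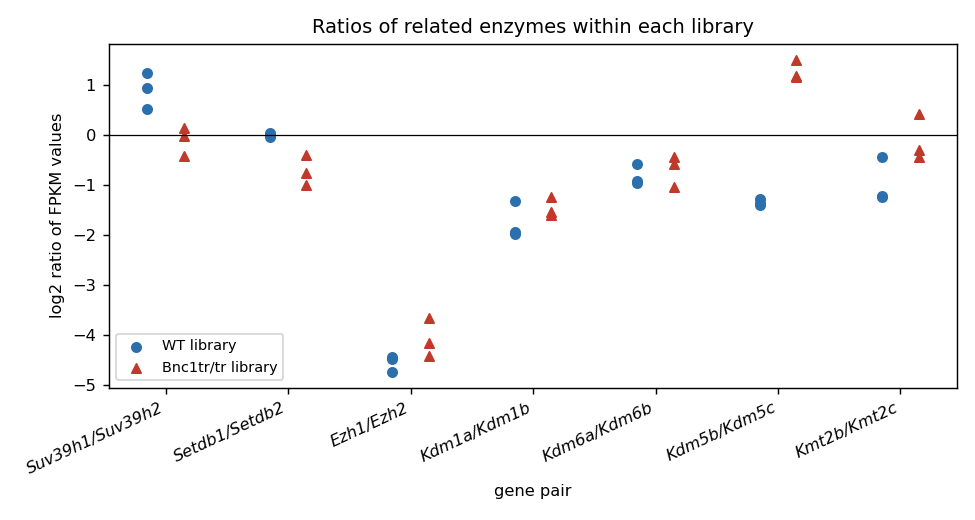
Log2 ratio of the FPKM of 2 paralogs in each library for 7 pairs, with circles for WT and triangles for Bnc1tr/tr libraries and a line at a ratio of 1. *Kdm5b* to *Kdm5c* lies above 0 in Bnc1tr/tr and below 0 in WT, and *Suv39h1* to *Suv39h2* and *Setdb1* to *Setdb2* are lower in Bnc1tr/tr.

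Proteins that work with these enzymes were followed in 6 lists of 69 genes, of which 54 were tested. Of these 11 were higher and 1 was lower, 22.2% against 31.8% of all genes. Among 14 COMPASS partners of the H3K4 writers 3 were higher, with *Rbbp5*, a core subunit, at 53.32, 39.14 and 42.41 FPKM in Bnc1tr/tr and 26.06, 15.47 and 6.84 in WT (log2 fold change 1.59, limma, adjusted p = 0.0139). The other two were *Hcfc1* (1.26, adjusted p = 0.00073) and *Psip1* (0.82, adjusted p = 0.0225), and *Wdr5*, *Ash2l* and *Dpy30* were not called. Of 6 PRC2 partners tested only *Mtf2*, which recruits PRC2 to CpG-rich DNA, was higher, at 111.86, 82.79 and 93.12 against 49.69, 44.01 and 43.56 FPKM (1.04, adjusted p = 0.00211).

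Of 13 PRC1 subunits tested 3 were higher, namely the reader *Cbx7* at 5.97, 7.34 and 4.13 against 0.22, 0.52 and 0.22 FPKM (2.35, adjusted p = 6.65e-05), *Phc3* (1.24, adjusted p = 0.00679) and the H2A ubiquitin ligase *Rnf2* (0.83, adjusted p = 0.00605). *Cbx7* passed the filter only through the Bnc1tr/tr group. Among 9 H3K9 readers and partners *Cbx5*, which encodes HP1 alpha, was higher at 58.28, 58.23 and 61.61 against 32.77, 33.71 and 33.94 FPKM (0.81, adjusted p = 0.00354), while *Cbx1*, *Cbx3* and *Trim28* were not called. Of 6 further methyltransferases tested, the H3K36 methyltransferase *Ash1l* (0.98, adjusted p = 0.00679) and *Smyd5* (1.29, adjusted p = 0.00259) were higher. Of 6 demethylases and Jumonji-domain partners outside the name pattern, *Jmjd1c*, a KDM3 relative, was higher at 8.67, 7.75 and 9.78 against 1.12, 1.21 and 0.86 FPKM (2.24, adjusted p = 2.39e-05). *Riox2*, a ribosomal oxygenase, was lower at a mean of 21.0 ± 5.15 against 39.2 ± 12.3 FPKM (-0.85, adjusted p = 0.0403), although Bnc1tr/tr replicate 2 lay just inside the WT range.

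The 20 members under the filter comprised 7 erasers, 5 writers, 7 PRDM genes and *Setd5*. Some were higher in all Bnc1tr/tr libraries. *Kdm5a*, an H3K4 demethylase, was at 1.77, 1.43 and 1.27 FPKM in Bnc1tr/tr and 0.45, 0.75 and 0.12 in WT, and *Kdm4d*, an H3K9 demethylase, at 1.39, 0.47 and 0.71 against 0.08, 0.07 and 0.02. With no filter these were called, as were *Setd1b* and *Setd5* (log2 fold changes 0.81, 0.78, 0.59 and 0.66, limma, adjusted p = 0.0295, 0.0343, 0.043 and 0.0157). *Kdm5a* also passed the filter and was called when WT replicate 1, 2 or 3 was left out, which gave 3 erasers higher, but its mean then reached 1 FPKM only through the greater weight of the Bnc1tr/tr group, where it is high. *Prdm8* was listed at 0 in all WT libraries and at 0.55, 0.39 and 0.25 FPKM in Bnc1tr/tr. The low-value steps of the tables put the libraries at an estimated 12.7 M to 22.2 M fragments, where 3 fragments on a transcript of 1 kb correspond to 0.135 to 0.237 FPKM. On longer transcripts the same number of fragments gives a lower FPKM. *Kmt2a*, an H3K4 methyltransferase, was at 0.15, 0.14 and 0.04 FPKM in Bnc1tr/tr and at 0, 0 and 0.01 in WT, without overlap but under the filter and not tested. *Setd7* did not exceed 0.03 FPKM in any library.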

How the data were processed

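Single GV oocytes were lysed, and cDNA was made and amplified by a modified Smart-seq2 protocol and fragmented with Tn5. The submitters' processing notes name HISAT2 2.0.4, Bowtie2 2.2.5, RSEM 1.2.12 and the build GRCm38.p6, without roles. The authors deposited 1 table of FPKM per library, with 2 decimals and 17577 genes. FPKM are normalised to transcript length and library total, and tests for counts could not be used. Depth was estimated from the low-value steps, most weakly for WT replicate 3; limits from it cover counting error only.

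Values were analysed as log2(FPKM + 1) with limma 3.58.1 in R 4.3.3 on all 6 libraries, for genes averaging 1 FPKM or more. Fold changes on this scale understate low genes. Calls required a log2 fold change beyond 0.5 in either direction and, after Benjamini-Hochberg adjustment over all tested genes, p below 0.05. Values per library are given for called members, for the 10 highest in WT and for *Ezh1*, *Ezh2*, *Eed*, *Suz12*, *Kdm1a*, *Kdm1b*, *Kdm6a* and *Kdm6b*; other members named with values were chosen after these were seen. The members and lists were chosen with earlier results of these data known. Paralog ratios were compared by exact permutation (scipy 1.17.1). Shared sequence was assessed as exonic overlap and as 31-base words in GENCODE M21 transcripts; promoters came from RefSeq. Steps across all genes were tested on simulated data. Alternatives covered pseudocount, filter, scaling, fold limit, replicate block and left-out libraries; leaving out Bnc1tr/tr replicates 1 and 2 together was chosen after seeing the data. Figures used matplotlib 3.10.9.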

Additional observations from a re-analysis of the deposited data

How the results depend on the processing

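Over 381 alternative values for 28 named members, 322 kept direction and side of the limits, 28 lost the call, 11 gained it and 20 changed sign; the cause was not tested except where fewer libraries or a stricter limit shows it. Leaving out single libraries gave 7 to 11 members higher and 0 to 1 lower, 1 to 2 writers higher and 0 to 1 lower, and 2 to 3 erasers higher. With Bnc1tr/tr replicates 1 and 2 left out, 2 members were higher and 0 lower (1 writer and 1 eraser higher, 0 writers lower). An absolute log2 fold change over 1 left 5 members higher and 0 lower, with 1 writer and 1 eraser higher and 0 writers lower. Upper-quartile and median-ratio scaling each gave 3 members lower (2 writers), with *Nsd2* and *Setd6* added to *Suv39h1*, and quantile normalization 6 lower (4 writers and 1 eraser, *Kdm5c*). Only 1 writer was higher under these 3 scalings and with a pseudocount of 0.1. No filter gave 4 erasers higher and a minimum mean of 5 FPKM gave 1. The labels do not say whether the replicate numbers pair the libraries, which were treated as unpaired. Same-numbered deviations correlated at 0.28, -0.03 and 0.12, too few values to decide it. With the number as a replicate block 9 members were higher and 1 lower, and 2781 genes were higher and 952 lower against 2547 and 811 without the block.

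The writer to eraser ratio was 1.81 in Bnc1tr/tr and 1.91 in WT without *Ezh2* and *Kdm1b*, 4.12 and 4.32 with *Eed*, *Suz12* and the PRDM genes added to the writers, and 2.35 in WT after quantile normalization. The log2 ratio of *Ezh1* to *Ezh2* differed by 0.47 as deposited and by 0.08 after quantile normalization. Sign changes were limited to members that were not called. After upper-quartile scaling *Eed* was at -0.26, *Kdm1a* at -0.15, *Kdm6b* at -0.087 and *Setd4* at -0.14. After median-ratio scaling *Eed* was at -0.18, *Kdm1a* at -0.0665 and *Setd4* at -0.049. After quantile normalization *Ezh1* was at -0.071 and *Kdm1a* at -0.17. With Bnc1tr/tr replicates 1 and 2 left out *Ezh2* was at 0.0587 and *Kdm1b* at 0.12. Leaving out single libraries moved *Eed* from -0.078 to 0.11, *Ezh2* from -0.29 to 0.0061, *Kdm2b* from -0.18 to 0.0185, *Kmt2d* from -0.20 to 0.0207 and *Setd4* from -0.039 to 0.31.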
